A study of Mus musculus with 12 samples.

Results

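The genes of fatty acid synthesis, uptake and oxidation were read in mouse white matter after feeding with chow that drew 60% of its kcal from fat (HFD) or 10% (CFD, the control). The 47 genes were chosen by symbol from a fixed list, out of 24060 genes in the count table, and all 47 were in the table. They fell into 14 genes of synthesis, elongation and desaturation, 15 of uptake, binding and activation, 12 of the carnitine shuttle and beta-oxidation, and 6 regulators and mitochondrial gatekeepers. All mice were, by the study's methods, male, and had the genotype Tie2-Cre:Rpl22-HA, in which Cre driven by the Tie2 (Tek) promoter puts a hemagglutinin tag on the ribosomal protein Rpl22. An anti-hemagglutinin pulldown (IP) then collects RNA on ribosomes of the Tie2 lineage, which holds endothelial cells and also cells of the blood lineage. From each mouse came 1 IP library and 1 library of whole white matter RNA, the input. The 4 groups held 3 mice each, 489, 555 and 556 on CFD and 516, 517 and 676 on HFD, and values are listed below in that order. Age and length of feeding are not given in the sources used here for these mice.

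Fatty acids are built from citrate-derived acetyl-CoA, lengthened and desaturated in the cytosol and endoplasmic reticulum, and are the raw material of myelin lipids, which oligodendrocytes make in large amounts. Fatty acids taken up from outside are carried by binding proteins, joined to coenzyme A and either stored, put into membranes or passed through the carnitine shuttle into mitochondria, where beta-oxidation shortens them. In the brain, oxidation is known mainly from astrocytes, while endothelial cells carry transporters and binding proteins for fatty acids from the blood.

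The libraries held 19567186 to 33660708 counts. Rn45s, the precursor of ribosomal RNA, took 38.7% to 42.3% of the counts in CFD IP and 17.1% to 19.1% in HFD IP, so the IP libraries of the 2 diets also differed in that share. The 15 endothelial markers together reached 6.48 to 213 CPM (counts scaled to a common library size) in CFD IP and 11.98 to 72.7 CPM in HFD IP, against 15.6 to 44.6 CPM in CFD input and 14.95 to 49.5 CPM in HFD input, and IP was above input in 3 of 6 animals. The defining marker Cldn5 was at 0 counts in 4 IP libraries of 6, and Tek had 0 in 3. Zeros were also found in input, where Cldn5 had 0, 0 and 0 counts on CFD and 50, 22 and 30 on HFD. Tek inputs had 4, 3 and 0 counts on CFD and 13, 0 and 76 on HFD. The 10 oligodendrocyte markers together reached 2937 to 7239 CPM in the IP libraries, against 3003 to 5047 CPM in the inputs. The 10 neuron markers reached 6277 to 11190 CPM in IP against 8220 to 13860 CPM in input. The 10 astrocyte markers reached 4084 to 10150 CPM in IP against 3886 to 5787 CPM in input. IP was above input in 4, 1 and 5 of 6 animals in that order. Of the 13 endothelial markers that could be tested over both diets, 9 were lower and 4 higher in IP than in input. Their median log2 fold change was -0.63, and 0 had an adjusted p under 0.1 in edgeR. Endothelial markers were thus not higher in IP as a set, and the fraction is called IP here. In such bulk samples, fewer cells of a type and less RNA per cell cannot be told apart.

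None of the 46 genes with enough counts to be tested passed an adjusted p under 0.1 between diets or fractions in edgeR's quasi-likelihood test, in any of 6 comparisons. The desaturases Scd2, Fads1, Scd1 and Fads2 and the acyl-CoA binding protein stood highest in level and the fatty acid receptor Cd36 lowest. Replicates were closest for synthesis and desaturation genes and farthest apart for oxidation genes.

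Hadha and Hadhb encode the alpha and beta subunits of the mitochondrial trifunctional protein, which carries out the last steps of long-chain beta-oxidation and needs both subunits. The genes lie head to head on chromosome 5 of the mm10 assembly, Hadha on the minus strand at 30119423 to 30154980 and Hadhb on the plus strand at 30155253 to 30184593, with 272 bases between them. Because the ratio of their levels ranged more widely than in the 5 other gene pairs compared, the 250 bases upstream of Hadhb, at chr5:30155003-30155252 on the plus strand from RefSeq on GRCm38.p6, are shown. They were chosen after the values were seen.
Hadhb upstream: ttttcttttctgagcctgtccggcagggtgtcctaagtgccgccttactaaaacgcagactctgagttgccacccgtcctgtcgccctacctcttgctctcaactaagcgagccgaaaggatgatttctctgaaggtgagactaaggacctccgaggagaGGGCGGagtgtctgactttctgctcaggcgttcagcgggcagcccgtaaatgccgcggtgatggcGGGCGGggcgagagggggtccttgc
Capitals mark the GC box GGGCGG, found 2 times, and 32.7% of 32851 upstream windows of the same length hold it on either strand. The CCAAT box, searched as CCAAT on either strand, and the TATA box, searched as TATAAA, had 0 matches, against 33.9% and 12.4% of windows. The window shares 228 bases with the upstream window of Hadha, so the 2 genes share most of this sequence.

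Levels were compared between genes per kilobase of gene model (CPM per kb, mean of 12 libraries). The desaturase gene Scd2, which makes monounsaturated fatty acids in brain, was highest at 178 CPM per kb. Dbi, which encodes the acyl-CoA binding protein, followed at 172 CPM per kb. Fads1 and Fads2, desaturases of polyunsaturated fatty acids, stood at 54.8 and 36.3 CPM per kb, and Scd1, the paralog of Scd2, at 38.6 CPM per kb. The remaining desaturase gene, Fads3, was low at 1.66 CPM per kb. The median over genes was 15.3 CPM per kb for synthesis, elongation and desaturation, 15.9 CPM per kb for uptake, binding and activation, 7.16 CPM per kb for the carnitine shuttle and beta-oxidation and 7.24 CPM per kb for the regulators. Among the regulators, Ppargc1a, a coactivator of mitochondrial genes, was highest at 27.1 CPM per kb. At the low end, Cpt2, the inner-membrane carnitine palmitoyltransferase, was at 1.06, Pparg at 0.504, the short-chain dehydrogenase Acads at 0.318, the lipase inhibitor Angptl4 at 0.188 and Cd36 at 0.0571 CPM per kb. Scd2 alone took 41.5% to 61.0% of the summed CPM of the 14 synthesis, elongation and desaturation genes, over the 12 libraries.

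**Figure D1:**
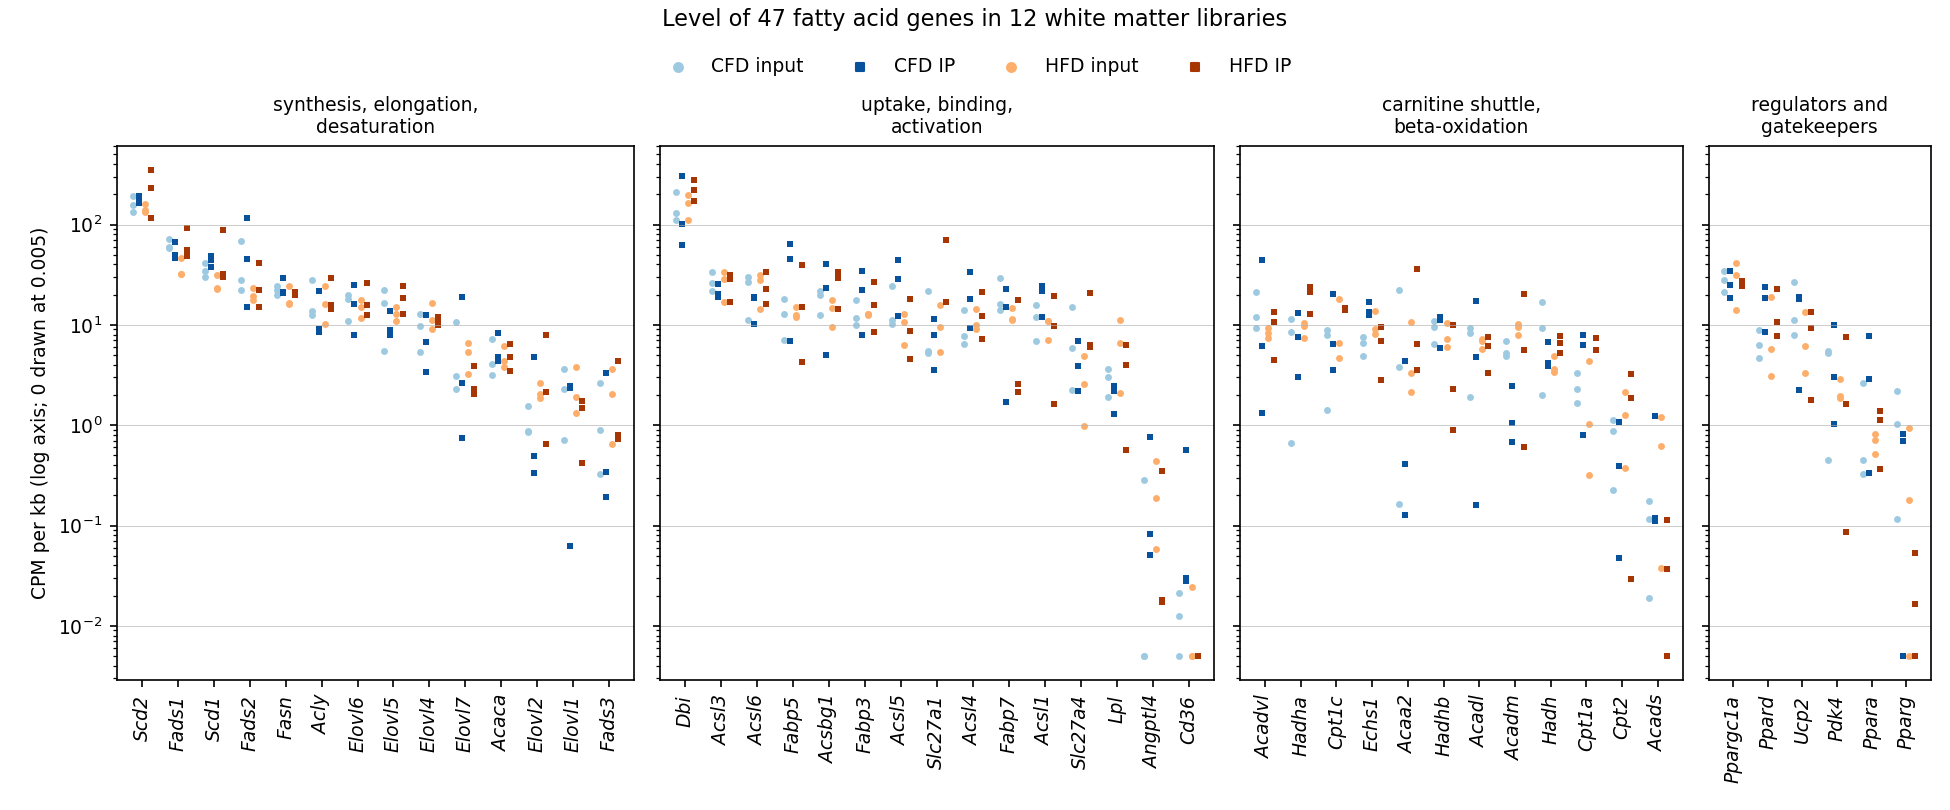
CPM per kb of gene model (log axis) of the 47 genes in each of 12 libraries, grouped by pathway step and ordered by mean level within a step. Circles are input and squares IP, blue for CFD and orange for HFD, and values of 0 are drawn at 0.005. Scd2 and Dbi stand highest and Cd36 lowest.

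The spread between mice also differed by step. The biological coefficient of variation (BCV), edgeR's estimate of the relative spread between replicates beyond counting error, had a median of 50.9% for the 14 synthesis, elongation and desaturation genes. It was 58.5% for the 14 tested uptake, binding and activation genes, 82.8% for the 12 oxidation genes and 79.6% for the 6 regulators. Over all 14354 genes tested the median was 85.8%. Fasn, the fatty acid synthase, had the lowest value of the 46 genes at 31.1%, next to Scd2 at 31.7% and Fads1 at 33.1%. Angptl4 had the highest at 177%, next to Pparg at 176%. The 2 steps with the smaller spread also had the higher median CPM, 50.3 and 46.9 against 13.5 for oxidation and 24.7 for the regulators, and the part of level in the spread was not tested.

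**Figure D2:**
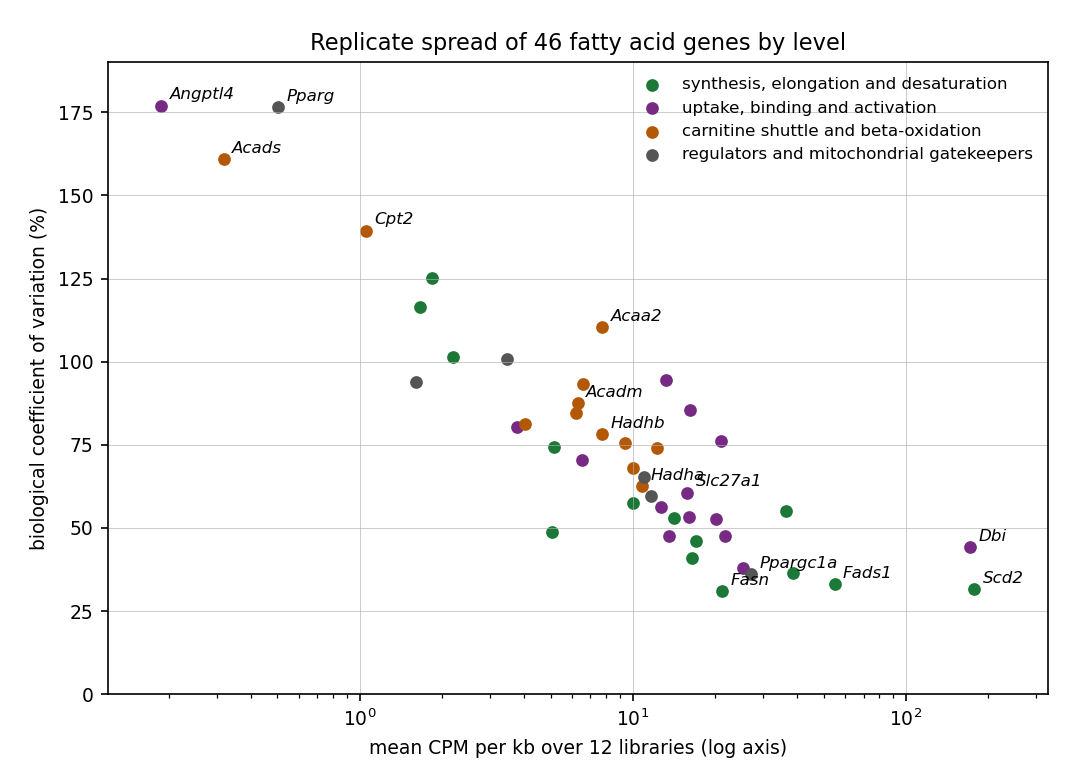
BCV in percent against the mean CPM per kb over 12 libraries (log axis), 1 point per gene for the 46 genes tested, coloured by pathway step. Fasn, Scd2 and Fads1 lie at 31.1% to 33.1%, while Angptl4, Pparg, Acads and Cpt2 lie at 139% to 177%.

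The comparison of HFD IP with CFD IP asked which RNAs of the pulldown differed with diet. Of the 46 genes, 0 were called at an adjusted p under 0.1 by edgeR, where 0.0557% of all 14354 genes were called (8 genes). The likelihood ratio test also called 0 of the 46, beside 1.58% of all genes (227), and DESeq2 called 2, Slc27a1 and Acadm, beside 5.36% (770). At an unadjusted p under 0.05, 3 genes stood higher in HFD IP, beside 6.08% of all genes, and 1 lower, beside 4.82%, or 4 of 46 in all, beside 10.9%. The groups did not overlap for 1 gene that was higher, Slc27a1, beside 5.94% of all genes, and for 1 that was lower, Echs1, beside 4.66%. These shares of the 46 genes were near or below those of all genes. The median log2 fold change of the 46 was 0.07, against 0.03 for all genes. By step it was 0.24 for synthesis, elongation and desaturation, -0.09 for uptake, binding and activation, 0.42 for the carnitine shuttle and beta-oxidation and -0.64 for the regulators.

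Slc27a1, which encodes a fatty acid transport protein (FATP1), lies on chromosome 8 at 71568728 to 71587307. It had 32.2, 22.3 and 9.92 CPM in CFD IP and 198, 47.3 and 46.7 CPM in HFD IP. All HFD IP libraries lay above all CFD IP libraries, and animal 516 stood far above the rest. Its log2 fold change was 2.18 (± 0.73 SE), at a raw p of 0.00686 with edgeR giving an adjusted p of 0.34 that ranged from 0.0613 to 0.91 over the alternatives. Without animal 516 the log2 fold change was 1.105, with edgeR giving an adjusted p of 0.678. Input held 14.7, 15.3 and 60.1 CPM on CFD and 15.04, 44.0 and 26.6 CPM on HFD, where the groups overlapped. The interaction of diet and fraction had a log2 value of 2.25 (± 1.002 SE), at a raw p of 0.0349 with edgeR giving an adjusted p of 0.895.

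Slc27a4, which encodes FATP4, a related transporter, had 15.6, 8.79 and 27.7 CPM in CFD IP and 84.2, 23.9 and 25.1 CPM in HFD IP. Animal 516 was again highest, and the other HFD IP values lay within the CFD IP range. Its log2 fold change was 1.35 (± 0.84 SE), with edgeR giving an adjusted p of 0.547. The inputs gave 23.6, 60.6 and 9.05 CPM on CFD and 3.98, 10.2 and 19.7 CPM on HFD, a log2 fold change of -1.46 (± 0.84 SE), with edgeR giving an adjusted p of 1. Without animal 555 the input value was -0.52. The groups overlapped in both fractions. Its interaction was 2.81 (± 1.19 SE) on the log2 scale, at a raw p of 0.0275 with edgeR giving an adjusted p of 0.875.

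**Figure D3:**
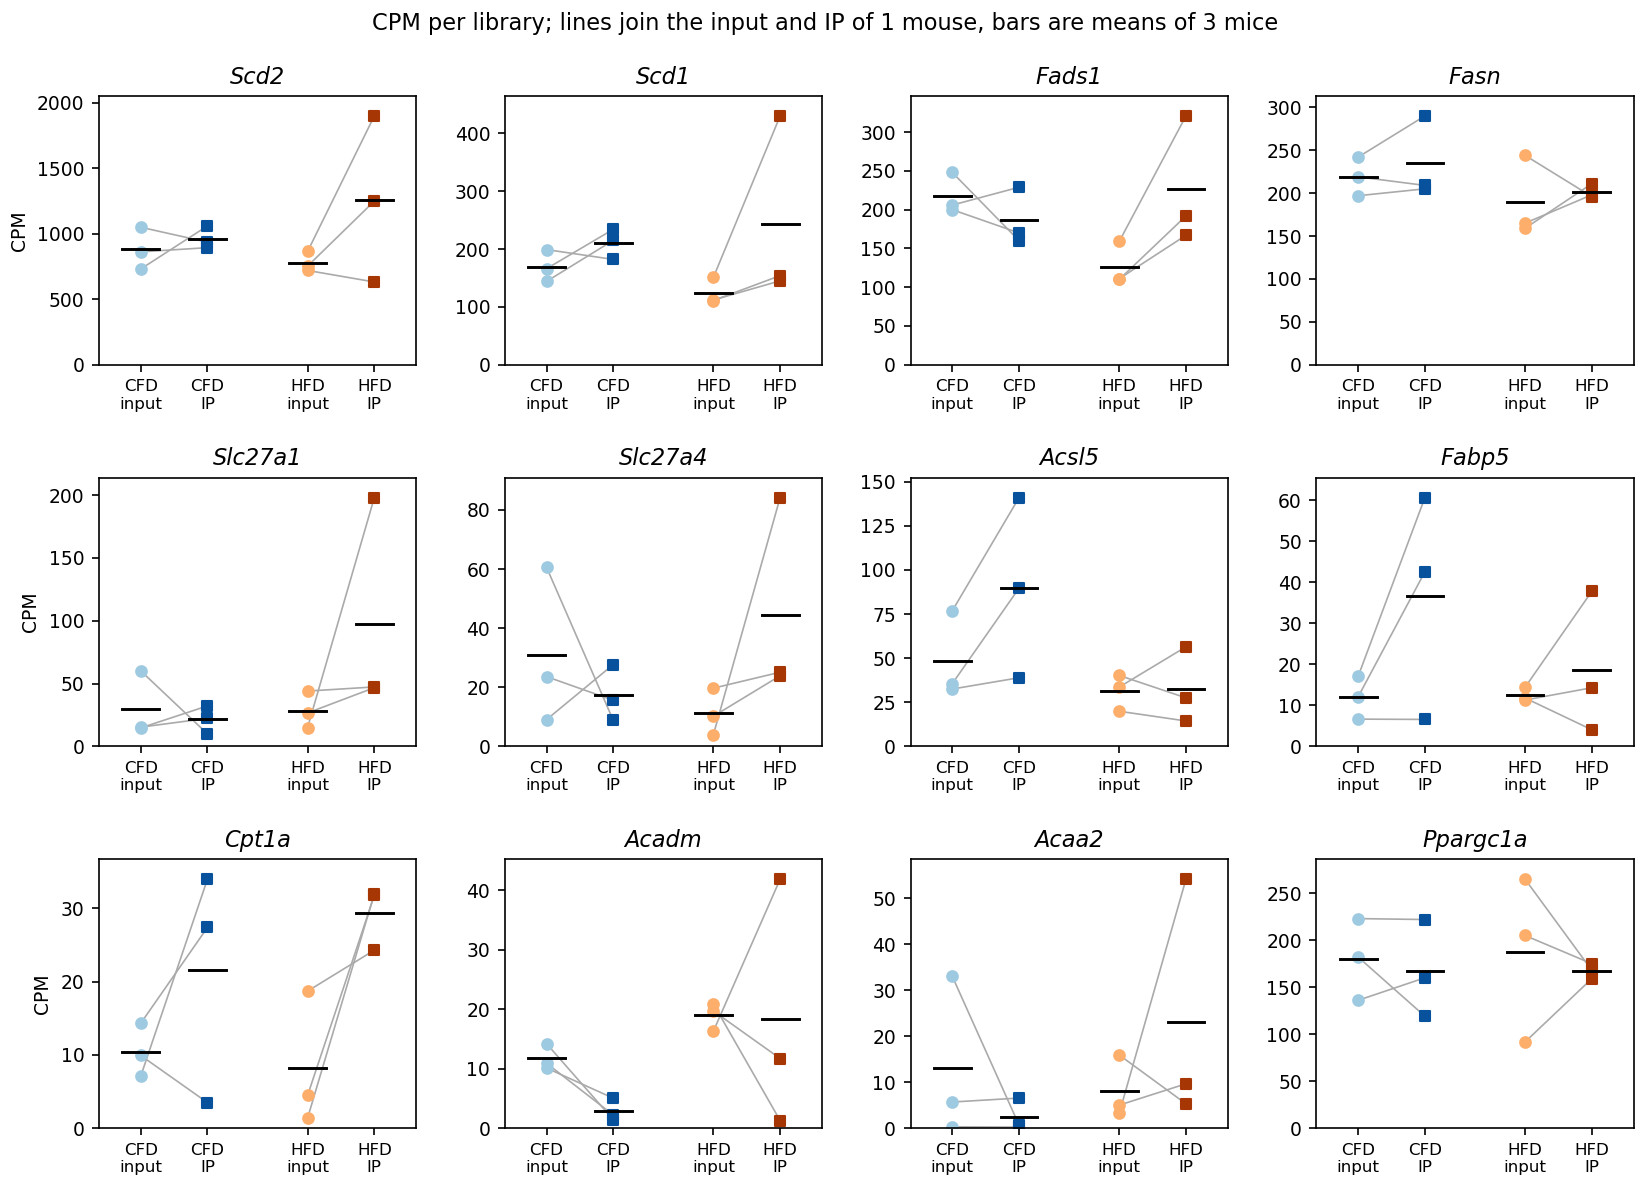
CPM in each library for 12 of the genes, input as circles and IP as squares, with a grey line joining the libraries of 1 mouse and a black bar at the mean of 3 mice. In HFD IP animal 516 holds the highest Slc27a1 value at 198 CPM, and animal 517 the highest Acadm value at 41.9 CPM.

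Acyl-CoA synthetases activate fatty acids for every later step. Acsl5, which encodes a synthetase of mitochondria and endoplasmic reticulum, had 141, 38.9 and 89.7 CPM in CFD IP and 14.4, 56.4 and 27.5 CPM in HFD IP. The groups overlapped, since animal 517 on HFD stood above animal 555 on CFD. The log2 fold change was -1.46 (± 0.61 SE), at a raw p of 0.0257 with edgeR giving an adjusted p of 0.404, and it ranged from -2.10 to -0.99 when 1 animal was left out. In the inputs it reached 76.9, 32.5 and 35.6 CPM on CFD and 19.9, 33.6 and 40.2 CPM on HFD. Acsl6, a synthetase known from neurons and astrocytes, had 48.5, 47.7 and 26.3 CPM in CFD IP and 40.9, 58.7 and 85.8 CPM in HFD IP. Acsbg1, the bubblegum synthetase for very long chains, had 113, 65.0 and 13.9 CPM in CFD IP and 93.9, 81.1 and 39.5 CPM in HFD IP. Both overlapped between diets. Acsl6 had 77.2, 28.6 and 67.8 CPM in CFD input and 36.8, 71.1 and 80.8 CPM in HFD input. Acsbg1 had 60.6, 34.9 and 55.4 CPM in CFD input and 49.2, 41.2 and 26.4 CPM in HFD input. Acsl1, Acsl3 and Acsl4 had adjusted p-values in edgeR of 0.598, 0.838 and 0.704 between the diets in IP.

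The binding proteins carry fatty acids and acyl-CoA through the cytosol. Dbi had 59.9, 177 and 36.4 CPM in CFD IP and 163, 131 and 99.6 CPM in HFD IP. Fabp5, known from endothelial cells as well as glia, had 6.57, 42.6 and 60.7 CPM in CFD IP and 4.06, 37.8 and 14.3 CPM in HFD IP. Fabp7, the brain form of radial glia and astrocytes, had 1.29, 17.4 and 11.6 CPM in CFD IP and 1.63, 1.95 and 13.6 CPM in HFD IP. All 3 genes overlapped between diets in IP, and the highest mouse of a group stood 8.36 to 13.5 times above the lowest for Fabp5 and Fabp7. The Dbi inputs were 75.6, 124 and 64.6 CPM on CFD and 96.9, 115 and 64.6 CPM on HFD. The Fabp5 inputs were 6.65, 12.1 and 17.1 CPM on CFD and 11.8, 14.4 and 11.3 CPM on HFD. The Fabp7 inputs were 12.4, 10.8 and 22.3 CPM on CFD and 11.1, 8.58 and 8.78 CPM on HFD. For Fabp5 and Fabp7 the mice were closer together in input than in IP. Fabp3 had 13.8 ± 8.57 CPM in CFD IP and 10.9 ± 6.01 CPM in HFD IP (SD, n = 3 each).

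Lipid uptake from the blood was read from Cd36, Lpl and Angptl4. Cd36, the fatty acid receptor of capillary endothelium in muscle and fat, had 2, 2 and 35 counts in CFD IP and 0 counts in all 3 HFD IP libraries. In input it had 1, 0 and 2 counts on CFD and 3, 0 and 0 on HFD, so 1 library held nearly all of its counts and it was not tested. That library, the CFD IP of animal 556, also had the highest endothelial marker sum, of which Egfl7 alone held 3650 counts, while 7 of the 15 markers were at 0 counts and 3 more at 1 to 3 counts in it. The part of these markers in the Cd36 count was not tested.

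Lpl, the lipoprotein lipase, had 9.98, 8.89 and 5.27 CPM in CFD IP and 2.29, 15.9 and 25.5 CPM in HFD IP. Its inputs were 14.8, 7.79 and 12.2 CPM on CFD and 8.48, 45.0 and 26.6 CPM on HFD. The diets overlapped in both fractions, with log2 fold changes of 0.86 (± 0.97 SE) in IP and 1.20 (± 0.98 SE) in input and adjusted p-values in edgeR of 0.765 and 1. Without animal 517 the input value was 0.59. Angptl4, which inhibits Lpl, had 3, 2 and 26 counts in CFD IP and 1, 1 and 22 in HFD IP, and 0, 0 and 15 in CFD input and 4, 23 and 10 in HFD input. A single IP library per diet held most of its counts.

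Synthesis starts with Acly, which makes cytosolic acetyl-CoA, followed by Acaca, the acetyl-CoA carboxylase, and Fasn. Fasn had 290, 209 and 205 CPM in CFD IP and 196, 211 and 198 CPM in HFD IP. Its log2 fold change was -0.22 (± 0.30 SE), with a 95% interval from -0.85 to 0.41, the narrowest of the 46 genes, and edgeR gave an adjusted p of 0.819. Across the inputs it had 242, 219 and 197 CPM on CFD and 244, 159 and 165 CPM on HFD, where the interval of the log2 difference was -0.84 to 0.42. The groups overlapped in each fraction. Acly had 96.5, 40.0 and 37.3 CPM in CFD IP and 63.3, 130.5 and 69.4 CPM in HFD IP, with edgeR giving an adjusted p of 0.668. Its inputs held 124, 60.7 and 55.4 CPM on CFD and 109, 71.4 and 44.9 CPM on HFD. Acaca had 39.1, 42.9 and 75.6 CPM in CFD IP and 58.2, 43.4 and 31.1 CPM in HFD IP, with edgeR giving an adjusted p of 0.892. Its inputs held 36.9, 65.2 and 28.9 CPM on CFD and 34.6, 56.2 and 39.0 CPM on HFD. Neither gene separated the diets.

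The elongases add carbon units to fatty acids of different lengths. None of the 6 had an unadjusted p under 0.05 in any of the 3 comparisons plotted with their intervals. Elovl6, which acts on saturated and monounsaturated chains, was the most abundant of them by CPM, at 97.4 ± 50.9 CPM in CFD IP and 108 ± 41.8 CPM in HFD IP (SD, n = 3 each). Between the diets in IP, the log2 fold changes of the elongases Elovl1, Elovl4, Elovl5 and Elovl7 and of the desaturase Fads3 ran from -1.44 for Elovl7 to 0.87 for Elovl5, at adjusted p-values in edgeR from 0.551 to 0.947. Elovl2, which lengthens polyunsaturated chains, had 6.01, 3.38 and 3.32 CPM in CFD input and 7.17, 10.1 and 7.93 CPM in HFD input without overlap. Its log2 fold change in input was 0.99 (± 1.28 SE), with edgeR giving an adjusted p of 1. That SE rests on a spread estimated over both fractions. The SD was 36.2% and 18.3% of the mean in CFD and HFD input, against 134.8% and 107.5% in CFD and HFD IP.

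Desaturation was led by Scd2, which lies with Scd1 on chromosome 19, at 44293676 to 44306864 and 44394450 to 44407709. Scd2 had 936, 1061 and 894 CPM in CFD IP and 1896, 1251 and 632 CPM in HFD IP. HFD IP held both the highest and the lowest value of these 6 libraries. Its log2 fold change was 0.39 (± 0.30 SE), with a 95% interval from -0.25 to 1.02, and edgeR gave an adjusted p of 0.643. Input held 1047, 731 and 862 CPM on CFD and 865, 753 and 720 CPM on HFD, a log2 fold change of -0.18 (± 0.30 SE).

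Scd1 had 182, 234 and 215 CPM in CFD IP and 430.1, 145 and 154 CPM in HFD IP. Its log2 fold change was 0.21 (± 0.38 SE), with edgeR giving an adjusted p of 0.869. The inputs held 199, 166 and 144 CPM on CFD and 151, 112 and 111 CPM on HFD, with edgeR giving an adjusted p of 1. Animal 516 alone placed the HFD IP mean above the CFD IP mean. Scd1 and Scd2 are close paralogs, and how reads that match both were assigned is not given in the sources used here.

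Fads1 had 229, 160 and 170 CPM in CFD IP and 192, 321 and 167 CPM in HFD IP, which overlapped. In input it had 206, 248 and 200 CPM on CFD and 110, 159 and 111 CPM on HFD, with every HFD library below every CFD library. The log2 fold change in input was -0.78 (± 0.33 SE), at a raw p of 0.0287 with edgeR giving an adjusted p of 1, and it stayed between -0.98 and -0.67 when any 1 animal was left out. Fads2, which acts before Fads1 in the same pathway, had 176, 67.8 and 22.7 CPM in CFD IP and 33.5, 62.8 and 22.5 CPM in HFD IP. In the inputs it reached 33.6, 103 and 41.8 CPM on CFD and 29.4, 35.4 and 26.9 CPM on HFD. Both pairs of groups overlapped, with log2 fold changes of -1.17 (± 0.64 SE) in IP and -0.96 (± 0.63 SE) in input and adjusted p-values in edgeR of 0.5 and 1. Without animal 489 the IP value was -0.21, and without animal 555 the input value was -0.29.

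**Figure D4:**
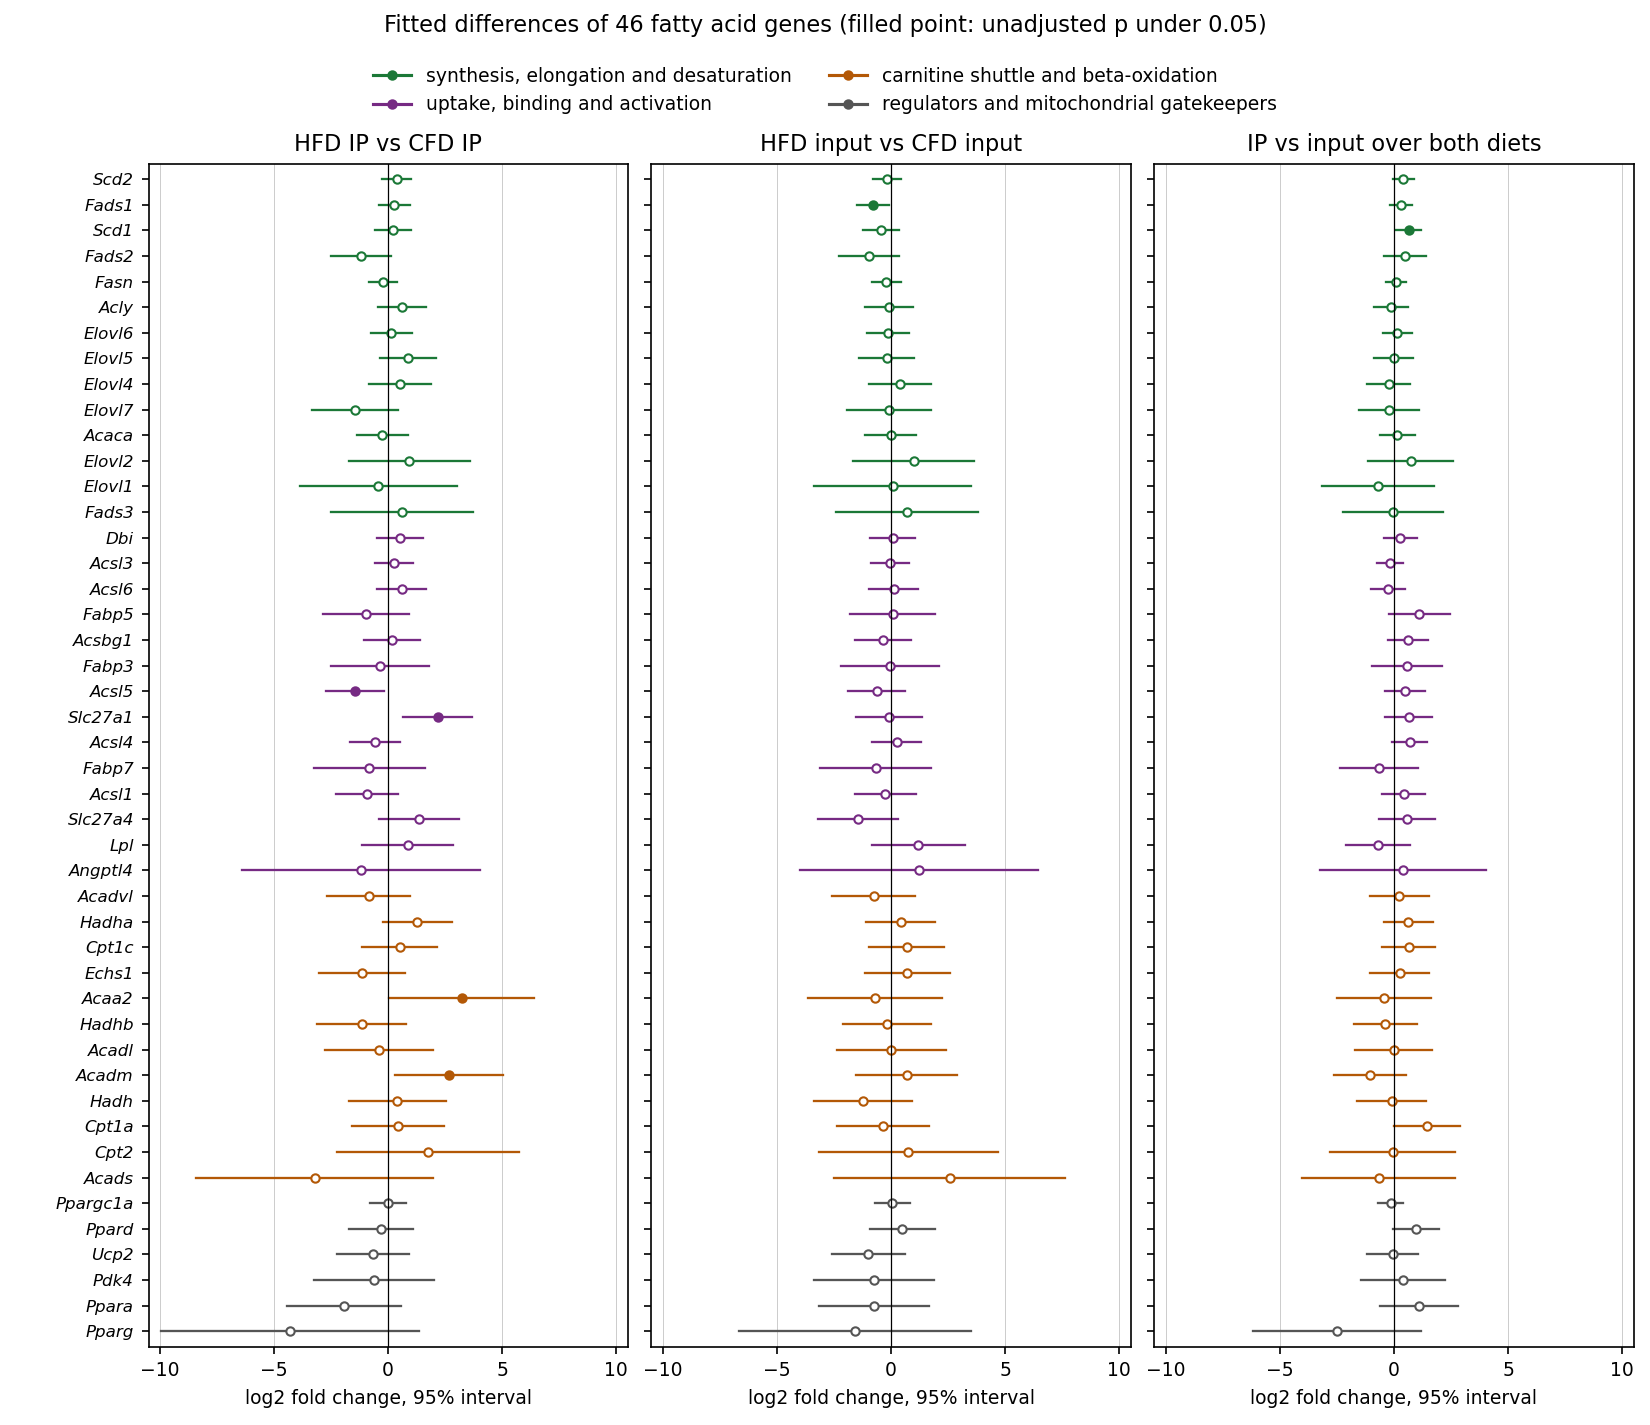
Log2 fold change (point) with its 95% interval (line) of the 46 genes tested, for HFD IP against CFD IP, HFD input against CFD input and IP against input over both diets, coloured by pathway step. Filled points have an unadjusted p under 0.05, and no gene has an adjusted p under 0.1. Between the diets in IP, intervals are narrowest for Fasn, Scd2 and Fads1 and widest for Pparg, Acads and Angptl4, whose fitted values rest on few counts and on the prior count of the fit.

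The carnitine shuttle carries acyl groups into mitochondria. Cpt1a, its rate-limiting enzyme in most tissues, had 3.47, 27.4 and 34.03 CPM in CFD IP and 31.97, 31.8 and 24.3 CPM in HFD IP. Whole tissue held 9.91, 14.3 and 7.08 CPM on CFD and 1.36, 4.45 and 18.7 CPM on HFD. Cpt1a was above the input of the same mouse in 5 of 6 IP libraries, all but that of animal 489. Cpt1c, the brain form of the endoplasmic reticulum, had 56.1, 18.2 and 9.81 CPM in CFD IP and 39.7, 39.0 and 41.5 CPM in HFD IP. Its inputs held 22.2, 3.98 and 24.6 CPM on CFD and 18.4, 13.1 and 50.2 CPM on HFD. The Cpt1c log2 fold change was 0.52 (± 0.80 SE) between the diets in IP and 0.68 (± 0.80 SE) in input, and the latter was -0.11 without animal 676. Cpt2 had 49, 19 and 2 counts in CFD IP and 2, 132 and 251 counts in HFD IP, with 48, 15 and 73 counts in CFD input and 32, 82 and 143 in HFD input. Its IP groups overlapped, and its interval of the log2 fold change ran from -2.25 to 5.76.

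Beta-oxidation opens with the acyl-CoA dehydrogenases. Acadm, for medium chains, had 5.02, 1.401 and 2.19 CPM in CFD IP and 1.25, 41.9 and 11.7 CPM in HFD IP. The groups overlapped because the lowest of the 6 values was that of animal 516 on HFD. The log2 fold change was 2.67 (± 1.13 SE), at a raw p of 0.0277 with edgeR giving an adjusted p of 0.404, which ranged from 0.0995 to 0.954 over the alternatives. Without animal 517 it was 1.17, with edgeR giving an adjusted p of 0.819. In input Acadm had 10.1, 14.2 and 10.9 CPM on CFD and 20.9, 16.3 and 19.7 CPM on HFD, without overlap. Its log2 fold change there was 0.69 (± 1.07 SE), with edgeR giving an adjusted p of 1. That SE rests on a spread estimated over both fractions. The SD was 18.7% and 12.8% of the mean in CFD and HFD input, against 66.3% and 115% in CFD and HFD IP. All 3 CFD IP values lay below all 6 input values.

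Acaa2, a mitochondrial thiolase, had 6.52, 0.193 and 0.617 CPM in CFD IP and 5.27, 54.2 and 9.63 CPM in HFD IP. Animal 517 again held the highest value, and the groups overlapped. The log2 fold change was 3.24 (± 1.53 SE), at a raw p of 0.0463 with edgeR giving an adjusted p of 0.451, which ranged from 0.178 to 0.946 over the alternatives. It was 1.61 without animal 517 and 5.80 without animal 489. Input held 5.66, 0.247 and 33.0 CPM on CFD and 15.9, 3.19 and 4.98 CPM on HFD, so the spread within a diet was as wide as between the diets.

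Acadl, for long chains, had 0.310, 34.02 and 9.31 CPM in CFD IP and 6.48, 12.1 and 14.8 CPM in HFD IP, with 16.2, 3.74 and 18.2 CPM in CFD input and 11.2, 14.2 and 13.3 CPM in HFD input. The CFD IP values reached both below and above all HFD IP values. Acads, for short chains, had 4, 48 and 4 counts in CFD IP and 2, 0 and 7 in HFD IP, and 5, 1 and 9 counts in CFD input and 42, 63 and 2 in HFD input. These counts are too few and too uneven to place the diets. Acadvl, for very long chains, and Hadh, the short-chain hydroxyacyl-CoA dehydrogenase, had adjusted p-values in edgeR of 0.739 and 0.912 between the diets in IP. Echs1, the enoyl-CoA hydratase, had 18.5, 20.1 and 25.2 CPM in CFD IP and 10.4, 4.23 and 14.3 CPM in HFD IP, without overlap. In input it lay the other way, at 11.2, 9.91 and 7.22 CPM on CFD and 20.7, 13.6 and 12.1 CPM on HFD, again without overlap. Neither difference passed, with adjusted p-values in edgeR of 0.644 and 1, and the interaction had an unadjusted p of 0.158. Echs1, Hadhb and Elovl2 were singled out after their values were seen.

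The trifunctional protein genes, whose shared upstream bases are printed above, took different courses over the libraries. Hadha had 11.6, 28.7 and 50.5 CPM in CFD IP and 81.3, 91.4 and 49.2 CPM in HFD IP, and Hadhb had 12, 22.9 and 24.2 CPM in CFD IP and 1.80, 4.66 and 20.1 CPM in HFD IP. The HFD IP of animals 516 and 517 held the most Hadha and the least Hadhb of all 12 libraries. Their log2 fold changes were 1.29 (± 0.74 SE) and -1.15 (± 0.94 SE), with adjusted p-values in edgeR of 0.513 and 0.655. In input Hadha had 32.4, 2.57 and 43.9 CPM on CFD and 37.7, 28.5 and 39.9 CPM on HFD, and Hadhb had 19.2, 22.1 and 13.1 CPM on CFD and 14.7, 12.2 and 21.4 CPM on HFD. Hadha was lowest in the CFD input of animal 555, at 73 counts, where Hadhb had 626. The ratio of Hadha to Hadhb per kb ran from 0.0617 in that library to 23.8 in the HFD IP of animal 516, a range of 386-fold. It was 10.4 in the HFD IP of animal 517 and 0.511 to 1.77 in the rest. Over the 12 libraries the log2 CPM values of the 2 genes had a Pearson r of -0.45 and a Spearman rho of -0.24. Of the 5 other pairs, Acadm and Acaa2 had a ratio that ranged 243-fold, Slc27a1 and Slc27a4 26.3-fold, Fads1 and Fads2 5.77-fold, Fasn and Acaca 2.75-fold and Scd1 and Scd2 2.10-fold. Pearson's r of the log2 CPM values was 0.55, 0.29, 0.58, -0.20 and 0.78 in that order, and Spearman's rho 0.43, 0.10, 0.58, -0.10 and 0.62. These are descriptions over libraries that share mice in pairs, and the 2 Scd genes may share reads. The pairs with the widest ratios also had a larger spread between mice. BCV was 62.6% and 78.2% for Hadha and Hadhb and 87.4% and 110% for Acadm and Acaa2. For Scd1 and Scd2 it was 36.3% and 31.7%. The part of this spread in the ratios was not tested.

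**Figure D5:**
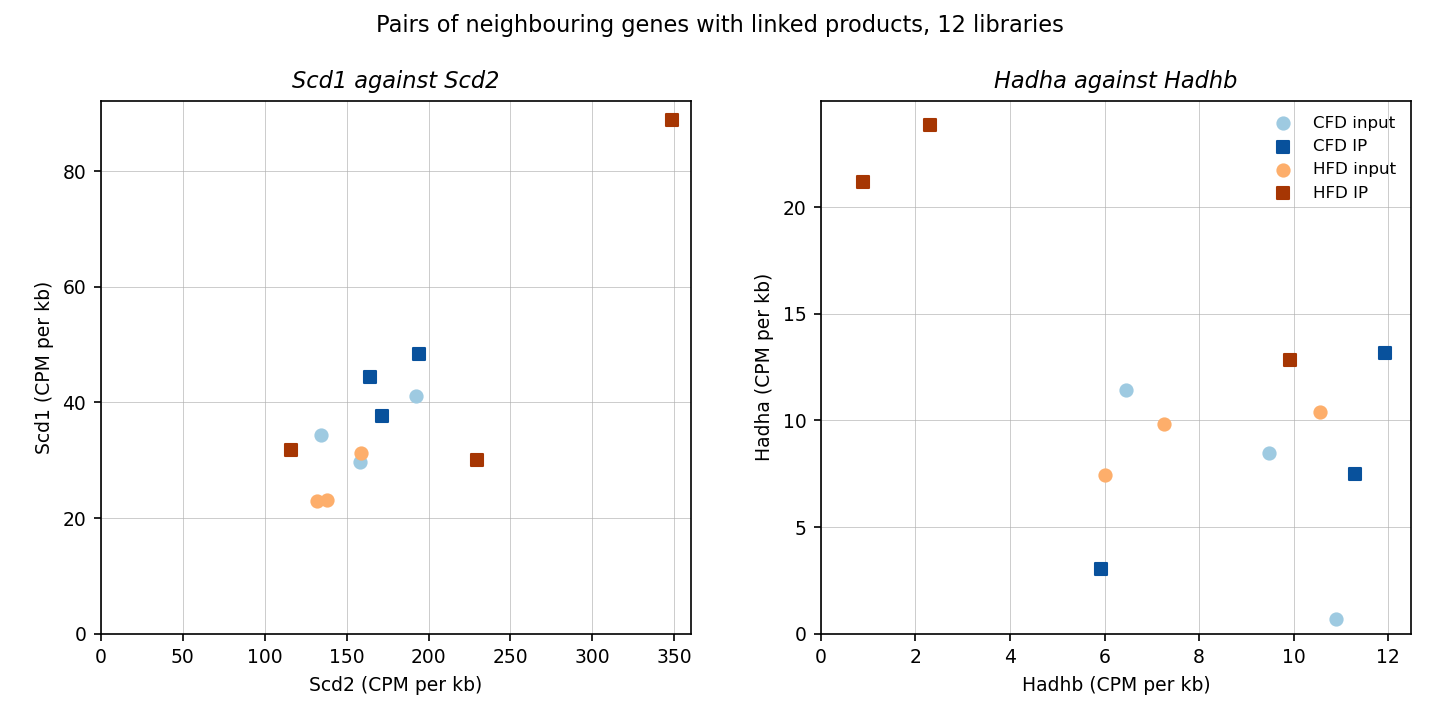
CPM per kb of Scd1 against Scd2 (left) and of Hadha against Hadhb (right), 1 point per library, circles for input and squares for IP. Scd1 rises with Scd2 along the plot and the HFD IP of animal 516 is the farthest point, while the 2 highest Hadha libraries have the lowest Hadhb levels.

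Of the regulators, Ppargc1a was the steadiest between the diets in IP, at 119, 160.1 and 222 CPM on CFD and 175, 168 and 159 CPM on HFD. Its log2 fold change was 0.00 (± 0.37 SE), with a 95% interval from -0.77 to 0.78. The inputs held 182, 136 and 223 CPM on CFD and 205, 265 and 91.6 CPM on HFD. The groups overlapped in both fractions.

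Ppara, the receptor that drives oxidation genes in liver, had 2.38, 55.9 and 20.7 CPM in CFD IP and 2.64, 9.91 and 8.20 CPM in HFD IP, a log2 fold change of -1.93 (± 1.20 SE) with edgeR giving an adjusted p of 0.547. Without animal 555 it was -0.75. Its inputs held 3.22, 2.33 and 19.2 CPM on CFD and 5.87, 5.11 and 3.73 CPM on HFD. Ppard, a related receptor, had 60.1, 27.4 and 77.0 CPM in CFD IP and 34.7, 72.5 and 24.8 CPM in HFD IP. Neither separated the diets. The Ppard inputs held 20.2, 14.9 and 28.3 CPM on CFD and 60.9, 18.3 and 9.99 CPM on HFD. Pparg, the receptor of fat cells, had 0, 27 and 27 counts in CFD IP and 0, 3 and 1 counts in HFD IP, with 5, 116 and 52 counts in CFD input and 12, 0 and 49 in HFD input. Its low counts give no usable fold change. Pparg was the lowest of the 6 regulators both as fitted and when set at 3 counts per HFD IP library, so their median of -0.64 does not turn on its value.

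Pdk4, the kinase that turns glucose carbon away from mitochondria when fat is burned, had 3.57, 34.8 and 10.54 CPM in CFD IP and 26.1, 0.297 and 5.64 CPM in HFD IP. Its inputs were 18.9, 1.55 and 18.3 CPM on CFD and 9.98, 6.81 and 6.43 CPM on HFD. Ucp2, an inner-membrane carrier, had 74.2, 77.8 and 9.36 CPM in CFD IP and 55.9, 38.5 and 7.34 CPM in HFD IP, and 45.7, 110.2 and 32.9 CPM in CFD input and 55.5, 25.3 and 13.7 CPM in HFD input. Both genes overlapped between diets in each fraction.

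Diet in the whole white matter was read from the inputs. None of the 46 genes was called by edgeR, beside 0.0% of all genes (0 genes). The likelihood ratio test and DESeq2 also called 0 of the 46, where they called 0 and 31 of all genes. At an unadjusted p under 0.05 there was 1 gene, Fads1, beside 2.03% of all genes. The diets did not overlap for 3 genes that were higher on HFD, Elovl2, Acadm and Echs1, beside 6.05% of all genes, and for 1 that was lower, Fads1, beside 4.33%. The median log2 fold change of the 46 was -0.08, against -0.004 for all genes, and by step it ran from -0.74 for the regulators to 0.22 for the carnitine shuttle and beta-oxidation.

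The comparison of IP with input asked what the pulldown held beyond the whole tissue. Averaged over both diets, 0 of the 46 genes were called by edgeR, beside 2.35% of all genes (337 genes), and 0 by the likelihood ratio test or DESeq2, which called 779 and 996 of all genes. At an unadjusted p under 0.05 there was 1 gene, Scd1, beside 13.9% of all genes. In 0 of the 46 genes did IP lie on one side of input in all 6 animals, while 4.09% of all genes were higher and 4.15% lower in all 6. The median log2 fold change was 0.19 for the 46 and -0.03 for all genes, with 0.45 for uptake, binding and activation, 0.12 for synthesis, elongation and desaturation, 0.17 for the regulators and -0.04 for the carnitine shuttle and beta-oxidation.

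Scd1 stood above the input of the same mouse in 5 of 6 IP libraries, with a log2 fold change of 0.64 (± 0.27 SE), at a raw p of 0.0266 with edgeR giving an adjusted p of 0.28. Without animal 516 the value was 0.36. Cpt1a had 1.45 (± 0.70 SE) on the log2 scale and Ppard 0.97 (± 0.49 SE), each above input in 5 of 6 animals, with adjusted p-values in edgeR of 0.36 and 0.379. Leaving out 1 animal gave 1.095 (without 556) to 2.25 (without 676) for Cpt1a and 0.56 (without 517) to 1.57 (without 516) for Ppard. On the lower side, Pparg, Acadm and Lpl were each below input in 5 of 6 animals. Acadm stood at -1.04 (± 0.76 SE) on the log2 scale and Lpl at -0.70 (± 0.68 SE), with adjusted p-values in edgeR of 0.598 and 0.721. Leaving out 1 animal gave -1.84 (without 517) to -0.73 (without 516) for Acadm and -1.04 (without 676) to -0.43 (without 517) for Lpl. An exact permutation test over the sign changes of the 6 pairs gave a p of 0.0625 to 0.156 for these 6 genes. By that test 0 of the 46 genes had a p under 0.05, where the smallest possible p is 0.03125. The share of all genes on one side of input in 5 of 6 animals was not counted.

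The 5 desaturase genes together had 1535, 1523 and 1303 CPM in CFD IP against 1486, 1251 and 1257 CPM in the inputs of the same mice, and 2553, 1782 and 989 CPM in HFD IP against 1162, 1061 and 981 CPM. The sum was above input in 6 of 6 animals, by the least in animals 489, 556 and 676. By gene, IP was above input in 5 of 6 animals for Scd1, 4 for Scd2 and Fads1, and 3 for Fads2 and Fads3. In animals 489 and 676 Scd2 was lower in IP, and in animal 489 Fads2 had 176 CPM in IP against 33.6 CPM in input. Sums of other lists were also read, and that of a further list of 15 regulators was likewise above input in 6 of 6 animals. The 10 oligodendrocyte markers together were above input in 4 of 6 animals, and reached 6770 and 7239 CPM in the IP libraries of animals 516 and 517, where the desaturase sums were highest, against 2937 to 6333 CPM in the other IP libraries. Their part in the desaturase sums was not tested. The 3 carnitine shuttle genes together had 62.1, 46.4 and 44.0 CPM in CFD IP against 34.2, 18.8 and 34.4 CPM in input, and 71.7, 75.1 and 73.4 CPM in HFD IP against 20.7, 20.5 and 74.0 CPM. IP was above input in 5 of 6 animals, and the exception, animal 676, had the highest input of all.

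In CFD, 0 of the 46 genes were called between IP and input beside 0.188% of all genes (27 genes), and 0 had an unadjusted p under 0.05 beside 11.8%. When each mouse was added to the same edgeR test as a fixed block over its own 2 libraries, 139 genes were called in CFD and none of the 46 was among them. In HFD, 0 of the 46 were called beside 0.0139% (2 genes, or 24 with the block). At an unadjusted p under 0.05 there were 5, all higher in IP, beside 6.51% of all genes in either direction. These were Scd1, Fads1, Scd2, Slc27a1 and Slc27a4, with adjusted p-values in edgeR from 0.656 to 0.713. Their log2 fold changes in that order were 0.96 (± 0.38 SE), 0.83 (± 0.33 SE), 0.69 (± 0.31 SE), 1.77 (± 0.72 SE) and 1.97 (± 0.86 SE). In HFD IP, animal 516 held the highest value of each but Fads1, which was highest in animal 517. Of all 14354 genes, 672 stood higher and 263 lower in IP at that unadjusted p. The likelihood ratio test and DESeq2 called 0 of the 46 in either diet, where they called 277 and 816 of all genes in CFD and 4 and 160 in HFD.

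The interaction of diet and fraction, which asks whether the diet difference in IP departs from that in input, called 0 of the 46 and 0.0% of all genes (0 genes), and 0 of the 46 with the likelihood ratio test or DESeq2, which called 37 and 121 of all genes. At an unadjusted p under 0.05 there were 3, Slc27a4, Fads1 and Slc27a1, beside 5.36% of all genes. Fads1 had a value of 1.06 (± 0.47 SE) on the log2 scale, with edgeR giving an adjusted p of 0.895. This comparison shares its libraries with the others, so the 3 genes are not independent of the values above.

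Of a wider list of 90 other genes of these pathways, 86 were in the count table, all but Hacd1, Hacd2, Hacd3 and Hacd4, and 0 of the 75 that could be tested were called in any comparison by edgeR. For HFD IP against CFD IP, 0 of 13 other synthesis genes, 1 of 18 other uptake, activation and storage genes, 5 of 29 other oxidation genes and 0 of 15 other regulators stood higher at an unadjusted p under 0.05, and 1, 1, 0 and 3 stood lower, beside 6.08% of all genes that stood higher and 4.82% that stood lower. The 5 oxidation genes included 2 peroxisomal enzymes and the carnitine carrier. Hsd17b4, the multifunctional enzyme of peroxisomal oxidation, had 145, 248 and 4 counts in CFD IP and 3113, 1498 and 1417 in HFD IP, with a log2 fold change of 3.35 (± 0.92 SE), edgeR giving an adjusted p of 0.265. Ehhadh, the other such enzyme, was at 0 counts in each CFD IP library and had 748, 44 and 49 in HFD IP, with edgeR giving an adjusted p of 0.286. Slc25a20, the carnitine and acylcarnitine carrier, had 4, 2 and 2 counts in CFD IP and 238, 184 and 52 in HFD IP, with edgeR giving an adjusted p of 0.363. The groups did not overlap for these 3 genes, as for 5.94% of all genes. The 3 were named because they had the smallest unadjusted p of the 29, so their lack of overlap is no separate result. In CFD input all 3 were within or above the range of CFD IP, at 348 to 741, 0 to 93 and 50 to 659 counts. Between IP and input in CFD their log2 fold changes were -1.80, -8.86 and -6.06, with adjusted p-values in edgeR from 0.2675 to 0.421. HFD input held 853, 1174 and 679 counts of Hsd17b4, 47, 234 and 10 of Ehhadh and 146, 1 and 345 of Slc25a20. HFD input and HFD IP overlapped for Ehhadh and Slc25a20 but not for Hsd17b4. These counts are not scaled to library size. Mlxipl, a glucose-sensing activator of synthesis genes, had 695, 2 and 0 counts in CFD IP and 1, 0 and 0 in HFD IP, so that 1 library held nearly all of them. Cpt1b, the muscle form of the shuttle, and Gpihbp1, the endothelial anchor of lipoprotein lipase, had 0 counts in all 12 libraries.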

How the data were processed

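White matter RNA was read from 12 libraries of 6 mice, 3 a diet, as IP and input. Per the submitters' processing notes, reads were aligned with STAR to mm10 and counted with HTSeq, and versions, strand and counting mode are not given in the sources used here. The labels name a Nugen Ovation kit and the methods a TruSeq Ribo-Zero kit, so the library kit is uncertain. The authors deposited 1 table with raw counts per gene, FPKM values, a normalized signal, and log2 fold changes with p-values of their own comparisons. The deposited counts were tested, the FPKM values of the authors gave only gene lengths, and the signal, log2 and p-value columns of the authors were not used. All per-sample columns matched a sample (0 did not).

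Genes were kept with filterByExpr (minimum count 10, minimum total 15), which left 14354 of 24060. They were scaled by TMM and tested with edgeR 4.0.16 (R 4.3.3) by the quasi-likelihood test on 4 group means, with Benjamini-Hochberg adjustment over all tested genes and a threshold of 0.1. Tables used Python 3.11.15. Intervals are 95%, and there were no molecular identifiers. Alternatives were DESeq2 1.42.0, the mouse as a fixed block in edgeR (IP against input and the interaction) or as a random block in limma 3.58.1 (between diets), a likelihood ratio test, other scaling, no filter, no Rn45s or Lars2, only the libraries compared, a threshold of 0.05 and each animal left out. The code was tested on simulated data. IP and input of one label number came from the same mouse, which gives the pairing. Their deviations from the group means correlated at 0.0064 to 0.19. Those of different mice on the same diet correlated at -0.104 to 0.0334, which overlaps that range, so the pairing rests on the labels. Libraries of a group were distinct, with a chi-square of their counts that was 119 or more times its degrees of freedom. The labels do not say more of how the mice were kept, so p-values measure the spread between these animals. In the reported fit each gene had a single estimate of that spread, shared by the 4 groups. IP and input of a mouse entered it as separate libraries. The SE and p-value of a comparison within input therefore also carry the spread between IP libraries.

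The members and lists were chosen with earlier results of these data known. Genes given in every library were those called, the 3 with the smallest unadjusted p in each direction between the diets in IP, between the diets in input and between IP and input over both diets, and 23 anchors. Upstream sequence came from RefSeq (GRCm38.p6), where 40 of 47 genes matched.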

Additional observations from a re-analysis of the deposited data

How the results depend on the processing

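Without the low-count filter, genes called numbered 219 for HFD IP against CFD IP, 312 for CFD IP against input, 79 for HFD IP against input, 3 for diet in input, 730 for IP against input over both diets and 44 for the interaction, against 8, 27, 2, 0, 337 and 0 in the reported fit. The likelihood ratio test gave 227, 277, 4, 0, 779 and 37 in that order, and DESeq2 gave 770, 816, 160, 31, 996 and 121. Of the 46 fatty acid genes, 1 (Slc27a1) was called without the filter and 2 (Slc27a1 and Acadm) by DESeq2, both for HFD IP against CFD IP, and 0 in the other settings. Without Rn45s and Lars2 the first comparison called 5 genes and HFD IP against input 0. With only the libraries compared, the first 3 comparisons called 3, 14 and 0, and this could not be applied to the averaged comparison or the interaction. At an adjusted p under 0.05, counts were 2 for HFD IP against CFD IP, 3 for CFD IP against input and 106 over both diets. The causes were not tested.

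With the replicate block, each mouse as a fixed term in the same edgeR test, 139 genes were called for CFD IP against input and 24 for HFD IP against input. Between animals the block could only be random, in limma, which called 5 genes for HFD IP against CFD IP, so there the tool changed with the pairing. It changed no call of the 46 genes.

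Leaving out 1 animal at a time gave 1 (without 517) to 20 (without 489) genes for HFD IP against CFD IP, with 4, 5 and 4 without 516, 555 and 556. CFD IP against input gave 2 (without 555) to 52 (without 516), with 4 without 489 and 3 without 556. HFD IP against input gave 0 (without 516) to 35 (without 676), with 1 without 517. Diet in input gave 0 to 1 (without 676), and the interaction 0 to 1 (without 556). IP against input over both diets gave 7 (without 516) to 430 (without 676), with 97, 28, 180 and 24 without 489, 517, 555 and 556. The 46 genes gave 0 calls in each. The log2 fold change of Cpt1c between diets in input ranged from -0.11 (without 676) to 1.06 (without 556). Depth limits Cd36, Angptl4, Acads and Pparg, whose counts were near 0 in several libraries.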
